A study of Rattus norvegicus with 12 samples.

Results

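Proteasome genes were measured in whole blood from rats of 2 inbred strains, F344 and WKY, either not restrained or put through chronic restraint stress (CRS). The set held every gene row whose symbol starts with Psma, Psmb, Psmc, Psmd or Psme, 45 of 17337 gene rows. Psmb8, Psmb9, Psmb10, Psme1 and Psme2 formed its interferon-inducible subset of 5 genes. At least 1 read count was recorded for 44 of the 45 rows; Psma3l, listed by RefSeq as a synonym of Psma3, had 0 counts in all 12 libraries. Psmc3ip, which meets the symbol rule, encodes a recombination factor and no proteasome subunit, and it had 6 counts in all. Only 7 members had enough counts to be tested for differences: Psmb1, Psmb9, Psmd2, Psmd4, Psmd9, Psme1 and Psme4.

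All animals were adult males aged 70 to 90 days. Every rat, stressed or not, had been through contextual fear conditioning, then 4 weeks in its home cage, and later a repeat conditioning, with blood taken 24 hours after that. The 4 groups of 3 libraries were F344 without stress (F344 NS), F344 restrained for 2 hours a day over 2 weeks (F344 CRS), WKY without stress (WKY NS) and WKY under the same restraint (WKY CRS). Nothing in the labels ties each library to its own rat, and the p-values thus reflect variation from library to library, which may be technical. Whole blood mixes cell types, so fewer cells of a type and less RNA per cell cannot be told apart.

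The 26S proteasome is the large protease that degrades ubiquitin-tagged proteins. Its barrel-shaped core has outer rings of alpha subunits (Psma genes) and inner rings of beta subunits (Psmb genes), of which Psmb5, Psmb6 and Psmb7 encode the catalytic ones. A regulatory cap made of a base with ATPases (Psmc genes and some Psmd genes) and a lid (other Psmd genes) recognises, unfolds and feeds in the substrate. Interferon, above all interferon gamma, induces Psmb8, Psmb9 and Psmb10, whose products replace the Psmb5, Psmb6 and Psmb7 subunits to form the immunoproteasome. It also induces Psme1 and Psme2, the subunits of the PA28 activator ring. Immunoproteasomes favour the kind of peptides that Tap1 and Tap2 carry to MHC class I, and they are abundant in immune cells of the blood.

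Interferon-regulated genes often carry an interferon-stimulated response element, which binds factors of the IRF family, near their start. RefSeq promoter windows of assembly GRCr8, from 250 bases before to 50 bases after the gene start, were found for 39 of the 45 members, and the letters GAAA, followed by any 2 bases and GAAA again, were searched on both strands. They were present in 6 of 39 member windows (15.4%), against 3.92% of all 33469 rat windows. The subset held 3 of these, Psmb8, Psmb10 and Psme2, and the other members Psma4, Psmb3 and Psmd7. The stretches around the matches in the subset are shown with those of Tap1 and Irf7, because Tap1 neighbours Psmb9 and because the members are set against Irf7, an interferon regulator that was higher in WKY. Each reads 5′ to 3′ on the gene's strand, and capitals mark the match on either strand.
Psmb8 (chr20:4657006-4657055, minus strand): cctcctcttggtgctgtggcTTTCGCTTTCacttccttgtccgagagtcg
Psmb10 (chr19:50743280-50743385, minus strand): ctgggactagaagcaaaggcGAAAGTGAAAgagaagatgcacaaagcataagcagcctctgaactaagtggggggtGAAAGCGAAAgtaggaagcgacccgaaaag
Psme2 (chr15:33052775-33052824, minus strand): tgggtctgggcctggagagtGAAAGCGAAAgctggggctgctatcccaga
Tap1 (chr20:4668635-4668684, minus strand): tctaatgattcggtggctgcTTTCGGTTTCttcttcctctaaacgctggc
Irf7 (chr1:205800063-205800112, minus strand): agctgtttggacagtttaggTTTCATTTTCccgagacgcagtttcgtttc

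Psmb10 carried 2 matches, and the Psmb8 match began 4 bases before the gene start. Psmb9 and Tap1 are transcribed away from each other from starts 457 bases apart. The Tap1 match lies between them, 121 bases from the Tap1 start and 336 from the Psmb9 start, outside the Psmb9 window. The windows of Psmb9 and Psme1 held no match to these letters. The interferon-gamma activated site TTCNNNGAA was found in 4 of 39 member windows (10.3%, against 8.87% of all), Psmb8 among them. The antioxidant response element TGACNNNGC, bound by the NRF factors that control constitutive proteasome genes, was found in 8 of 39 (20.5%, against 12.1%), including Psmb5 and Psmb6 and 0 of the 5 inducible genes. No match of one motif overlapped a match of another in a member window. A match of letters is a description, not a shown binding site.

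Proteasome transcripts were rare in these libraries. Genes received 1691956 to 3846263 counts per library, but the 3 most abundant features took 88.9% to 94.6% of them, which left 90796 to 419789 for all other genes. The members together received 52 to 387 counts per library, 2793 in all, and the inducible subset 7 to 85, 549 in all. Levels are given as CPM, in which TMM scaling puts all libraries on 1 total, and 1 count was worth 0.202 to 1.14 CPM. A count of 0 therefore allows a level of up to 0.606 to 3.43 CPM (3 counts), and these floors cover counting error only. A count was worth most in F344 NS replicates 3 and 2, 1.14 and 0.609 CPM, and replicate 3 had counts for 25 members, the fewest of the 12 libraries. This worth follows the scaling as well as depth. F344 NS replicate 2 had 195564 counts outside the top 3 features. WKY NS replicate 3 had fewer, 170507, yet a count there was worth 0.387 CPM. Levels are compared between libraries and not between genes, since transcript lengths were not available for scaling.

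**Figure D1:**
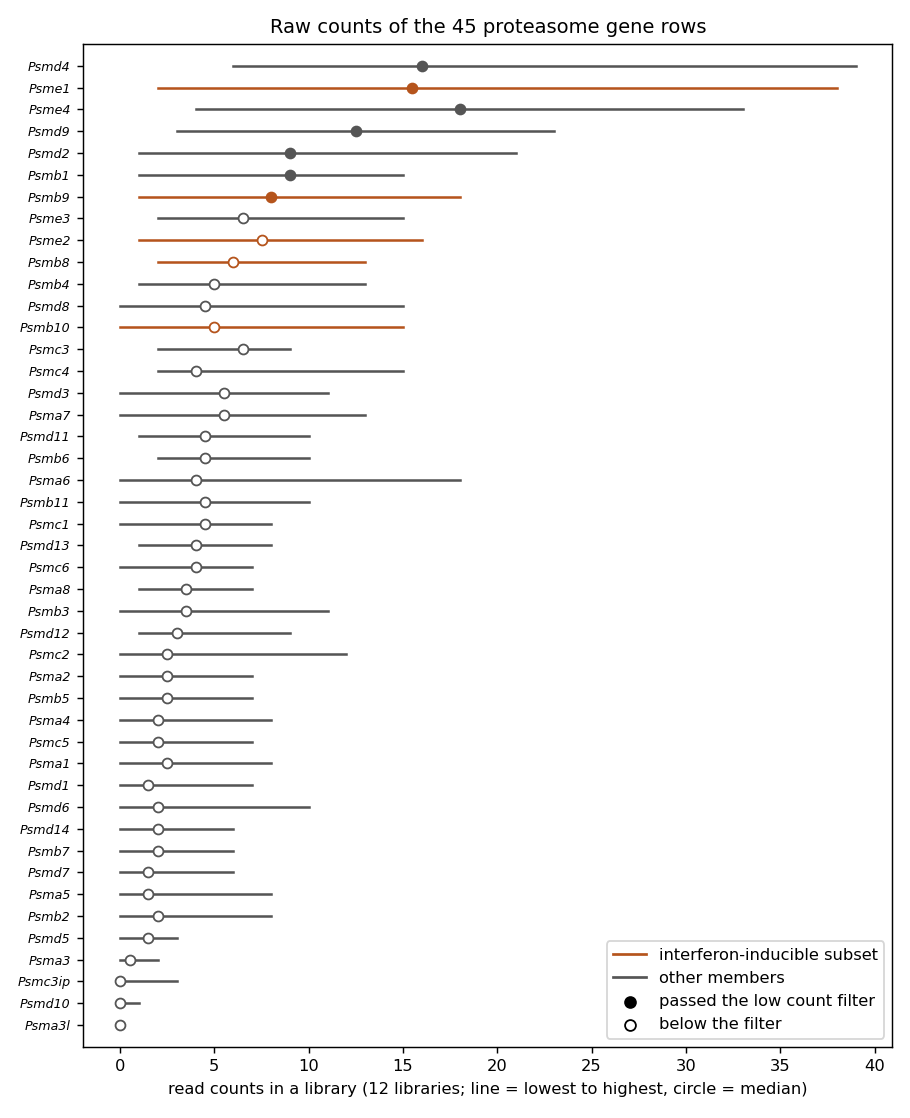
Raw read counts of the 45 proteasome gene rows, ordered by total count; the x axis is counts in a library, each line runs from the lowest to the highest of 12 libraries and each circle is the median. Filled circles mark the 7 members that passed the low count filter; orange marks the inducible subset. No member exceeded 39 counts in a library.

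Counts were spread thinly over the whole complex. Psmd4, the cap's ubiquitin receptor, had 229 counts over the 12 libraries, Psme1 218 and Psme4, the PA200 activator, 212. The median member had 48 counts, and 18 members had a count in every library. Among alpha ring genes the totals ran from 0 for Psma3l and 8 for Psma3 to 66 for Psma7. Among the base ATPases they ran from 33 for Psmc5 to 70 for Psmc3, and among lid genes from 27 for Psmd7 to 72 for Psmd8. The 7 tested members held 40.1% of the members' counts; the highest total below the filter was 86 for Psme3 (PA28 gamma), and the lowest above it 99 for Psmb9. The testis-specific alpha subunit Psma8 had 44 counts in 12 libraries and the thymus-specific beta subunit Psmb11 had 54 counts in 11. Psma8 overlaps Ss18 in the GRCr8 annotation. Without a stated strand setting it is not known whether reads from the shared stretch were counted for Psma8, for Ss18 or left out as ambiguous.

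The summed level of all members was alike in the 4 groups. It was 71.8 ± 12.6 CPM in F344 NS, 72.7 ± 6.57 in F344 CRS, 73.4 ± 10.6 in WKY NS and 71.4 ± 2.01 in WKY CRS (SD, n = 3 each). WKY and F344 libraries averaged 72.4 ± 6.92 and 72.3 ± 9.004 CPM (SD, n = 6 each), a log2 ratio of 0.003, and CRS and NS libraries 72.1 ± 4.40 and 72.6 ± 10.5, a log2 ratio of -0.01. Both differences were far below the spread between libraries. These sums over chosen members are descriptions and were not tested.

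The sums by structural class were compared in the same way. The base genes summed to 18.1 ± 4.32 CPM over WKY libraries and 18.3 ± 2.90 over F344 libraries (SD, n = 6 each), and the lid genes to 9.43 ± 2.50 and 9.91 ± 2.69. The alpha ring summed to 6.86 ± 2.12 over WKY libraries and 5.39 ± 2.50 over F344 libraries, and the non-catalytic beta genes to 7.02 ± 1.25 and 5.32 ± 2.07. By treatment the alpha ring summed to 7.10 ± 2.25 CPM in CRS and 5.14 ± 2.15 in NS libraries (log2 0.467), and Psma8 and Psmb11 together to 2.19 ± 0.969 and 3.55 ± 1.90. The constitutive catalytic genes stood at 3.04 ± 0.947 in CRS and 3.78 ± 0.854 in NS, and the inducible catalytic genes at 6.54 ± 1.70 and 5.54 ± 2.21. Each of these gaps was smaller than the SD of at least 1 of the sets compared. Between single groups of the same strain or the same treatment, 2 gaps of subunit classes exceeded both SDs. The non-catalytic beta genes stood at 7.28 ± 1.67 CPM in WKY NS and 4.36 ± 1.83 in F344 NS. The alpha ring stood at 6.77 ± 1.52 in F344 CRS and 4.01 ± 2.75 in F344 NS (SD, n = 3 each). These 2 were picked from all classes and from those pairs of groups, and the libraries overlapped in both. Pairs that differ in both strain and treatment were not compared. For the beta genes F344 NS reached 6.07 CPM and WKY NS went down to 5.57. For the alpha ring F344 NS reached 6.62 CPM and F344 CRS went down to 5.12. The alpha ring value of F344 NS replicate 3, 1.14 CPM, rests on 1 count.

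The inducible subset summed to 14.1, 14.0 and 8.01 CPM in the F344 NS libraries and to 16.1, 13.7 and 17.2 in F344 CRS. It summed to 19.1, 11.8 and 7.74 in WKY NS and to 14.8, 11.3 and 13.1 in WKY CRS. The highest and the lowest library of all 12 both belonged to WKY NS, so the groups overlapped. The means were 12.0 ± 3.48 CPM in F344 NS, 15.7 ± 1.84 in F344 CRS, 12.9 ± 5.76 in WKY NS and 13.1 ± 1.72 in WKY CRS (SD, n = 3 each). As a log2 ratio WKY stood to F344 at -0.09 over all libraries, 0.10 without stress and -0.26 after CRS. CRS stood to NS at 0.21 over all libraries, 0.38 in F344 and 0.02 in WKY. The gaps of F344 CRS to F344 NS and to WKY CRS were larger than the SDs of both groups compared, although the libraries overlapped.

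**Figure D2:**
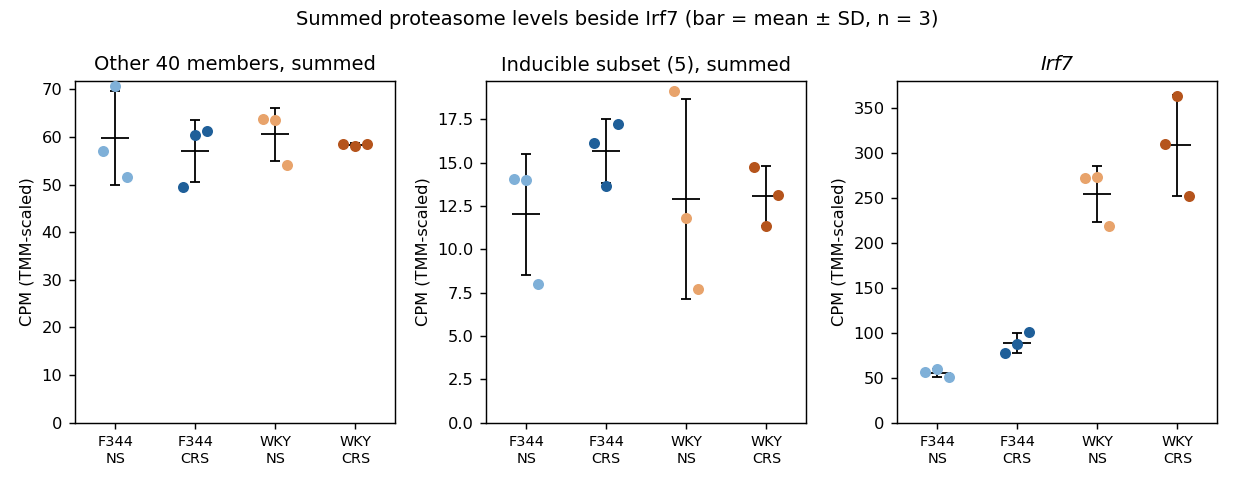
Summed CPM of the other 40 members (left), summed CPM of the 5 inducible members (centre) and CPM of Irf7 (right) in each library, with group mean and SD (n = 3). Irf7 separated the strains, with 50.3 to 101 CPM in F344 and 219 to 363 in WKY libraries, whereas the proteasome sums of the 4 groups overlapped.

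Irf7, a master regulator of interferon responses, stood at 55.3 ± 4.72 CPM in F344 NS, 88.5 ± 11.5 in F344 CRS, 254 ± 30.9 in WKY NS and 308 ± 55.8 in WKY CRS (SD, n = 3 each). Every WKY library lay above every F344 library. Averaged over treatments it was higher in WKY by a log2 fold change of 1.997 (SE 0.206, 95% interval 1.58 to 2.42, edgeR adjusted p = 1.25e-08). Irf7 was chosen as the gene that led the strain difference in these data. Its p-value and interval are therefore not independent evidence of that difference.

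Psme1, a subunit of the PA28 ring, stood at 4.69, 4.26 and 2.29 CPM in F344 NS and at 7.07, 6.15 and 7.31 in F344 CRS. It stood at 8.75, 3.60 and 3.87 CPM in WKY NS and at 3.57, 5.67 and 5.59 in WKY CRS. The 3 F344 CRS libraries lay above all F344 NS libraries and above all WKY CRS libraries, while the WKY NS libraries lay on both sides of F344 CRS. Psme1 was the single tested member without overlap in either comparison; among all tested genes the groups did not overlap for 11.9% in F344 CRS against NS and 19.6% in WKY CRS against F344 CRS. In WKY CRS against NS 0 of 7 members were free of overlap (10.1% of all genes), and in WKY NS against F344 NS also 0 of 7 (14% of all genes).

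No difference in Psme1 passed the edgeR test. In F344 its log2 change after CRS was 0.74 (SE 0.418, edgeR adjusted p = 0.940), and in WKY it was -0.22 (SE 0.390, adjusted p = 0.975). The difference between these responses was -0.96 (SE 0.573, adjusted p = 0.993). Depth differed alongside: F344 NS had 90796 to 220499 counts outside the top 3 features and F344 CRS 281942 to 419789. The part of depth in the Psme1 values was not tested. Every F344 NS library was shallower than every F344 CRS library, so depth and CRS cannot be told apart in these values. Psme1 overlaps Emc9 in the GRCr8 annotation, and how reads from their shared stretch were counted is not known either.

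Psme2, the partner subunit of the PA28 ring, stood at 1.38, 4.26 and 2.29 CPM in F344 NS and at 1.82, 2.73 and 3.25 in F344 CRS. In WKY NS it stood at 2.07, 3.28 and 0.774 CPM and in WKY CRS at 2.29, 1.31 and 0.329. The lowest of these rests on 1 count, and all groups overlapped. Psme2 was below the count filter; in a fit without that filter its strain difference was -0.49 (SE 0.446, edgeR adjusted p = 0.929) and its CRS change -0.07 (SE 0.439, adjusted p = 1.00).

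Psmb9, which replaces Psmb6, stood at 4.96, 1.22 and 1.14 CPM in F344 NS and at 2.83, 1.02 and 2.23 in F344 CRS. It stood at 2.53, 0.983 and 1.55 CPM in WKY NS and at 3.57, 2.18 and 4.27 in WKY CRS. A single F344 NS library was above all others, and within every group the values spread by more than 1.5-fold. After CRS its log2 change was -0.52 in F344 (SE 0.583, edgeR adjusted p = 0.996) and 0.94 in WKY (SE 0.574, adjusted p = 0.96). The difference between these responses, 1.46 (SE 0.820, edgeR adjusted p = 0.993), did not pass the test, and its 95% interval ran from -0.21 to 3.12.

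Psmb8, which replaces Psmb5 and lies near Psmb9 in the MHC region, had 80 counts and was below the filter. It stood at 1.66, 1.22 and 2.29 CPM in F344 NS, at 2.22, 2.05 and 2.03 in F344 CRS, at 2.30, 2.62 and 1.16 in WKY NS and at 3.31, 1.75 and 1.64 in WKY CRS. All 4 groups overlapped. Without the filter its strain difference was 0.29 (SE 0.448, edgeR adjusted p = 1.00) and its CRS change 0.42 (SE 0.447, adjusted p = 0.986).

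Psmb10, which replaces Psmb7, had 71 counts. It stood at 1.38, 3.05 and 0 CPM in F344 NS, at 2.22, 1.71 and 2.44 in F344 CRS, at 3.45, 1.31 and 0.387 in WKY NS and at 2.04, 0.436 and 1.31 in WKY CRS. F344 NS and WKY NS each spanned most of the range seen over the 12 libraries. The 0 is in the shallowest library, where 1 count is 1.14 CPM and 3 counts are 3.43 CPM, so it leaves room for any level up to the latter.

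**Figure D3:**
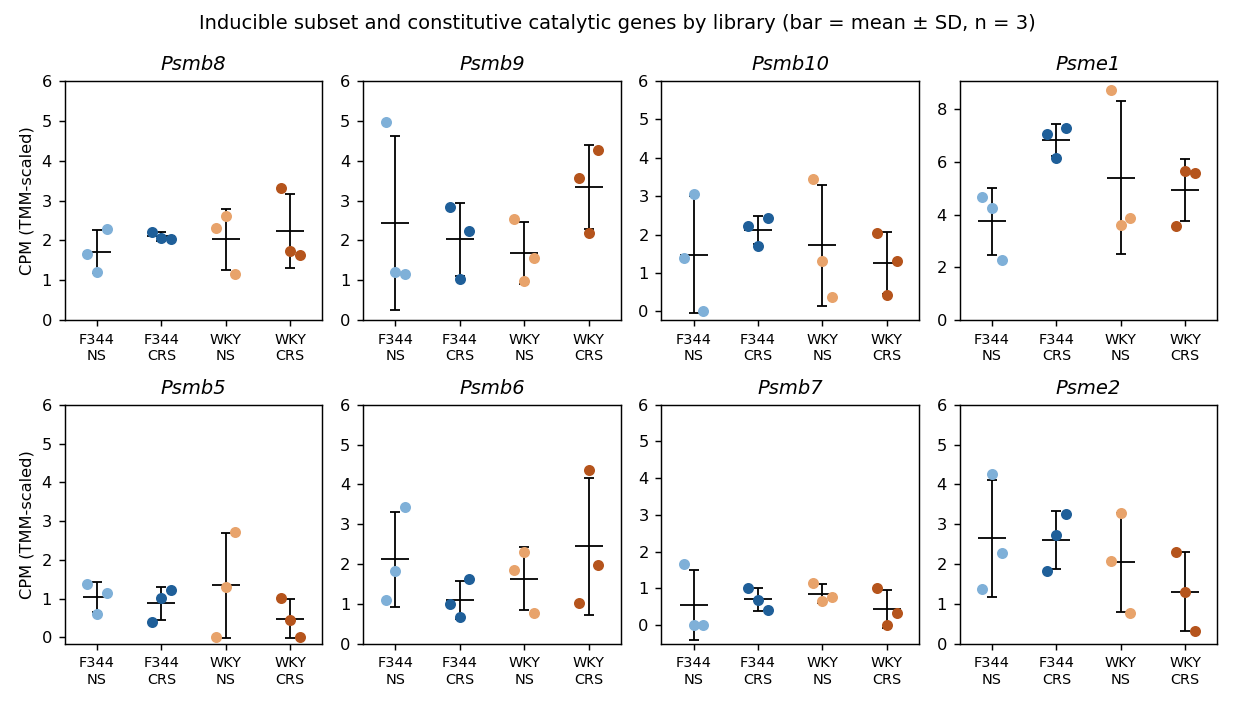
CPM (TMM-scaled) of the 5 inducible genes and of the constitutive catalytic genes Psmb5, Psmb6 and Psmb7 in each library, with group mean and SD (n = 3); the panel of Psme1 has a longer y axis. Of the 8 genes, Psme1 alone shows F344 CRS apart from F344 NS.

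The constitutive catalytic genes were scarcer still. Psmb5, the chymotrypsin-like subunit, had 34 counts, with 1.38, 0.609 and 1.14 CPM in F344 NS, 0.404, 1.02 and 1.22 in F344 CRS, 0, 1.31 and 2.71 in WKY NS and 1.02, 0.436 and 0 in WKY CRS. Psmb6, the caspase-like subunit, had 62 counts, with 1.10, 1.83 and 3.43 CPM in F344 NS, 1.01, 0.683 and 1.62 in F344 CRS, 1.84, 2.29 and 0.774 in WKY NS and 1.02, 4.36 and 1.97 in WKY CRS. Psmb7, the trypsin-like subunit, had 29 counts, with 1.66, 0 and 0 CPM in F344 NS, 1.01, 0.683 and 0.406 in F344 CRS, 1.15, 0.655 and 0.774 in WKY NS and 1.02, 0 and 0.329 in WKY CRS. No group was apart from the others in any of the 3 genes, and many values rest on 0 to 3 counts. Without the filter, Psmb5 had a CRS change of -0.57 averaged over strains (SE 0.636, edgeR adjusted p = 0.996) and of -1.10 in WKY (SE 0.914, adjusted p = 0.873). Psmb6 had the opposite sign, 0.11 averaged over strains (SE 0.492) and 0.45 in WKY (SE 0.641). Psmb7 stood at -0.37 (SE 0.674) and -0.72 (SE 0.966), and none of these passed.

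Shares within a library do not depend on how libraries are scaled. The inducible subset took 19.7% of the members' counts over all libraries (549 of 2793, exact Clopper-Pearson 95% interval 18.2% to 21.2%). It took 20.8% in F344 libraries (286 of 1378, interval 18.6% to 23.0%) and 18.6% in WKY libraries (263 of 1415, interval 16.6% to 20.7%). It took 18.4% in NS libraries (220 of 1199) and 20.6% in CRS libraries (329 of 1594). The intervals cover counting error only, and those of the strains overlap. Of the counts of the 6 catalytic genes, Psmb8, Psmb9 and Psmb10 took 66.7% (250 of 375), with 68.1% in F344, 65.3% in WKY, 62.5% in NS and 69.8% in CRS libraries. Because transcript length enters, these percentages compare libraries and do not give a ratio of transcripts.

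The share of the inducible subset moved with depth. It was 19.8%, 16.5% and 13.5% in F344 NS, 24.6%, 18.4% and 22.0% in F344 CRS, 23.1%, 15.7% and 12.5% in WKY NS and 20.1%, 16.4% and 18.3% in WKY CRS. Within groups, 11 of 12 pairs of libraries had the higher share in the library with more counts outside the top 3 features. Replicate 1 had the highest share in each of the 4 groups, including F344 CRS, where replicate 3 was deeper. Over the 12 libraries Pearson's r with that depth was 0.864 and Spearman's rho 0.853, and r was 0.881 without the 2 libraries farthest from the median depth. For Psmb8, Psmb9 and Psmb10 among the 6 catalytic genes r was 0.736, and for Psme1 and Psme2 among the 4 activator genes 0.703. These correlations describe 12 libraries in 4 groups and share their counts with the depth measure. F344 CRS, the deepest group, also had the highest pooled share, 22.1% (205 of 929), so depth and CRS cannot be told apart in that value.

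**Figure D4:**
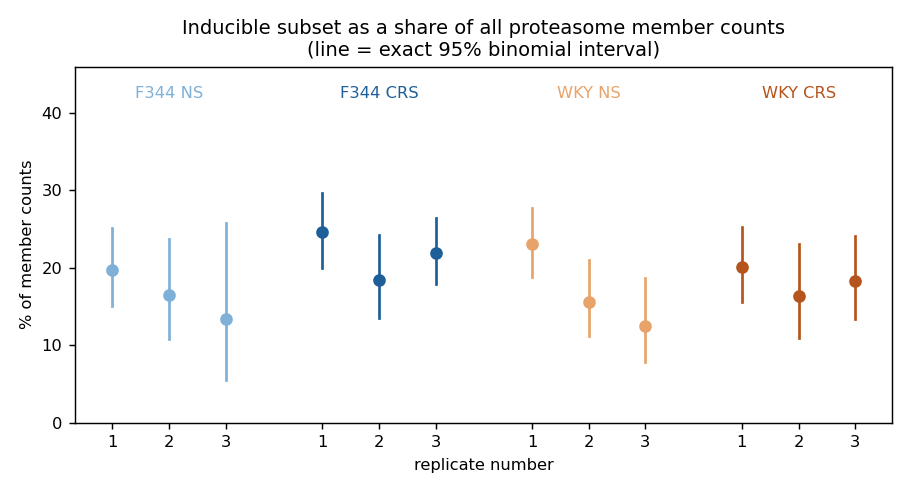
Counts of the 5 inducible genes as a percentage of all proteasome member counts in each library (y axis), by group and replicate number (x axis); lines are exact 95% binomial intervals. The libraries range from 12.5% to 24.6%, and the groups overlap.

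Between the strains, averaged over treatments, 0 of 7 tested members passed the edgeR test (adjusted p from 0.709 to 0.998), against 3.74% of all 2781 tested genes. At an unadjusted p under 0.05 the members again gave 0 of 7, against 14.7% of all genes, and DESeq2 called 0 of the 12 members to which it gave an adjusted p. The members' median log2 difference was -0.005 and that of all tested genes -0.008. Psmb1, a non-catalytic beta subunit, had 3.31, 0.609 and 1.14 CPM in F344 NS, 2.42, 2.05 and 2.64 in F344 CRS, 3.22, 1.97 and 3.10 in WKY NS and 3.82, 2.18 and 3.29 in WKY CRS. Its strain difference was the largest of the 7, 0.40 (SE 0.385, 95% interval -0.38 to 1.18, edgeR adjusted p = 0.709). That difference became 1.08 without F344 NS replicate 1 and 0.23 without F344 NS replicate 2. Psmb1 overlaps Tbp in the GRCr8 annotation, and how reads from their shared stretch were counted is not known. The strain differences of the inducible members were -0.06 for Psmb9 (interval -0.87 to 0.76, adjusted p = 0.974) and -0.03 for Psme1 (interval -0.61 to 0.56, adjusted p = 0.985). Both values changed sign with the library left out. For Psme1 this interval spans 0.653-fold to 1.48-fold.

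Psmd4, the ubiquitin receptor, had 3.03, 6.70 and 6.86 CPM in F344 NS, 5.05, 4.44 and 7.51 in F344 CRS, 5.53, 9.18 and 3.48 in WKY NS and 4.84, 17.0 and 2.30 in WKY CRS. The value of 17.0 stood apart from the other 11. The strain difference was 0.35 (SE 0.351, edgeR adjusted p = 0.722) and became -0.16 without that library. Psmd2, a scaffold of the base, had 3.59, 2.44 and 1.14 CPM in F344 NS, 3.23, 2.05 and 3.65 in F344 CRS, 4.84, 3.60 and 2.71 in WKY NS and 3.82, 1.75 and 1.97 in WKY CRS. Its strain difference was 0.12 (SE 0.352, adjusted p = 0.928).

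Psmd9, an assembly chaperone of the base, had 2.48, 4.87 and 3.43 CPM in F344 NS, 3.43, 5.12 and 2.84 in F344 CRS, 5.30, 5.24 and 1.55 in WKY NS and 3.06, 1.31 and 4.27 in WKY CRS. Psme4, the PA200 activator linked to histone degradation, had 3.03, 12.2 and 4.58 CPM in F344 NS, 3.43, 6.49 and 6.70 in F344 CRS, 4.84, 4.92 and 6.19 in WKY NS and 6.37, 5.23 and 6.24 in WKY CRS. The groups overlapped for both genes, and the 12.2 CPM of Psme4 comes from F344 NS replicate 2, where 1 count was worth 0.609 CPM. Their strain differences were -0.005 (SE 0.370) and -0.06 (SE 0.298), with edgeR adjusted p of 0.998 and 0.960.

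Each treatment was also taken by itself. Without stress 0 of 7 members differed between the strains, against 0.683% of all tested genes (lowest member adjusted p = 0.783 by edgeR). After CRS 0 of 7 differed, against 1.29% (lowest adjusted p = 0.668). Background shares this low would give no call among 7 genes in most cases, so the counts of 0 say little by themselves. Averaged over both treatments, no tested member's 95% interval reached beyond -0.87 or 1.18 on the log2 scale, and that of Irf7 began at 1.58. Without stress the members' intervals reached up to 1.58 (Psmb1) and that of Irf7 began at 1.59. After CRS they overlapped: Psmb9 reached 1.77, Psmb1 1.42 and Psmd4 1.32, while the Irf7 interval began at 1.22. The difference between Irf7 and the members was not itself tested.

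Between CRS and NS, averaged over strains, 0 of 7 members passed the edgeR test, against 0.036% of all genes (1 gene). In F344 and in WKY taken singly the counts were 0 of 7 members, against 0% of all genes, and the difference between the strains' responses was also called for 0 of 7 members and 0% of all genes. At an unadjusted p under 0.05 the 7 tested members gave 0 in each of these. The shares of all genes were 7.08%, 4.67%, 5.79% and 3.81%, in the order named, and DESeq2 called 0 of 44 members in each. Averaged over strains the log2 changes ran from -0.20 for Psmd2 (95% interval -0.91 to 0.51) to 0.27 for Psmd4 (interval -0.45 to 0.98). Psme1 changed by 0.26 (interval -0.32 to 0.85, adjusted p = 0.953), Psmb9 by 0.21 (interval -0.62 to 1.04), Psmb1 by 0.19 (interval -0.60 to 0.97), Psmd9 by -0.18 (interval -0.89 to 0.53) and Psme4 by -0.003 (interval -0.66 to 0.66). The value of Psmd4 became -0.24 without WKY CRS replicate 2, and without F344 NS replicate 1 that of Psmb1 became 0.88 and that of Psmb9 0.89. The members' intervals reached from 0.532-fold to 2.06-fold averaged over strains, from 0.308-fold to 3.01-fold in F344 and from 0.355-fold to 4.29-fold in WKY. Changes within these bounds could not be told from none at this depth.

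**Figure D5:**
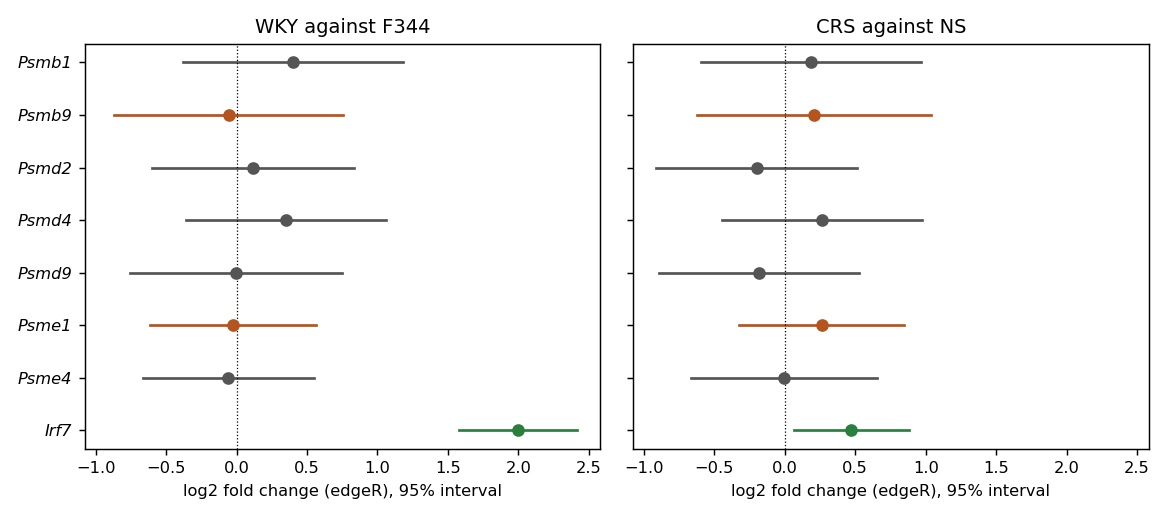
Log2 fold changes from the edgeR fit with 95% intervals for the 7 tested members and Irf7, WKY against F344 averaged over treatments (left) and CRS against NS averaged over strains (right); orange marks inducible members, green Irf7. All intervals of members include 0, and those for strain end at or below 1.18, under the Irf7 interval of 1.58 to 2.42.

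A fit without the low count filter took in all 44 members with counts and 15012 genes, and it called 0 members in any of the 7 contrasts. It called 0.593% of all genes between strains over both treatments, 0.147% without stress and 0.266% after CRS. For CRS it called 0.04% over both strains, 0.0333% in F344 and 0.0533% in WKY, and for the difference in response 0.02%. At an unadjusted p under 0.05 this fit gave 2 of 44 members between strains over both treatments, against 6.81% of all genes. Without stress it gave 2 (4.86% of all genes) and after CRS 0 (5.4%). For CRS against NS it gave 2 over both strains (5.3%), 3 in F344 (4.66%) and 0 in WKY (3.78%). For the difference in response it gave 2 (3.94%). The lowest adjusted p-values of a member belonged to Psmc2, a base ATPase. Its strain difference was -1.73 on the log2 scale over both treatments (SE 0.628, edgeR adjusted p = 0.327) and -2.63 without stress (SE 0.866, adjusted p = 0.376), neither past the test. Psmc2 had 6, 12 and 0 counts in the F344 NS libraries and 4, 0 and 0 in WKY NS, so F344 NS replicate 2 carried most of them. Psmd12, a lid subunit, stood at 1.66, 5.48 and 2.29 CPM in F344 NS and at 0.404, 0.683 and 0.609 in F344 CRS (log2 -1.997, edgeR adjusted p = 0.855), and all of its libraries held 1 to 9 counts. Psmc5, another base ATPase, had a CRS change of 1.85 over both strains (edgeR adjusted p = 0.755). In the same fit Psme1 changed by 1.075 after CRS in F344 (SE 0.452, edgeR adjusted p = 0.855). Its difference between the strains' responses was -1.273 (SE 0.624), and neither passed.

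The genes around the proteasome were read in 5 lists. Of 12 interferon regulators and sentinels, all tested, 6 were higher in WKY and 0 lower over both treatments, where 3.74% of all tested genes were called, with a median log2 difference of 1.24. These were Irf7, Isg15 (2.22), Ifit3 (1.27), Mx1 (1.28), Mx2 (1.82) and Oas1a (3.64), antiviral effectors and their regulator. Irf1, which activates Psmb9 and Tap1 promoters, had a difference of 0.03 (SE 0.269, edgeR adjusted p = 0.983). The list was taken up with the strain difference already known and is not independent evidence of it.

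Of 11 peptide loading genes measured, 10 were tested and 2 were higher in WKY (3.74% of all tested genes were called): Tapbp, the tapasin that bridges TAP and MHC class I (log2 0.91, SE 0.259, edgeR adjusted p = 0.0417), and its relative Tapbpl (1.37, SE 0.387, adjusted p = 0.0400). The list's median was 0.10. Tap1, whose start faces that of Psmb9, had 4.69, 3.66 and 2.29 CPM in F344 NS, 8.68, 5.80 and 10.6 in F344 CRS, 4.61, 13.1 and 5.81 in WKY NS and 8.66, 9.16 and 8.87 in WKY CRS. All F344 CRS libraries lay above all F344 NS libraries. These groups did not overlap, in either direction, for 11.9% of all tested genes. The log2 change of Tap1 in F344 was 1.11 (SE 0.427, edgeR adjusted p = 0.918). Its strain difference was 0.52 (SE 0.283, adjusted p = 0.405), and that of Tap2, -0.53 (SE 0.306, adjusted p = 0.443), had the opposite sign; neither passed. Its CRS change over both strains was 0.65 (adjusted p = 0.649).

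In the other lists nothing passed in the strain contrast, which with 3.74% of all genes called says little of lists this short: 0 of 3 tested assembly and regulator genes (13 measured), 0 of 2 tested regulators of proteasome transcription (5 measured) and 0 of 11 tested ubiquitin supply and shuttle genes (13 measured). Psmf1, the PI31 regulator, had 220 counts and a strain difference of 0.37 (SE 0.275, edgeR adjusted p = 0.596). Pomp, the maturation factor of the core, had 18 counts, Shfm1, a small lid subunit, 12, and Uchl5, a cap deubiquitinase, 14, all below the filter. For CRS over both strains 0 genes passed in any of the 5 lists, where 0.036% of all genes were called.

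Sums of blood cell markers were set beside these values. Those of monocytes and T cells did not overlap between the strains. Those of B cells, NK cells, neutrophils, reticulocytes and platelets did. The summed level of 9 monocyte markers ran from 58.5 to 87.5 CPM in F344 and from 119 to 169 in WKY libraries. Among these 9, Lyz2 had 3207 counts and the next, Csf1r, 449. The sum of 14 T cell markers, of which Il7r was at 0 in every library, ran from 65.2 to 83.3 in F344 and from 40.6 to 63.9 in WKY. The sum of 9 platelet markers, of which Gp1bb was at 0 in every library, was 42.8 ± 11.4 CPM in F344 NS, 75.5 ± 5.90 in F344 CRS, 75.2 ± 27.5 in WKY NS and 111 ± 25.1 in WKY CRS (SD, n = 3 each). Their part in the levels of proteasome genes was not tested.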

How the data were processed

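The authors deposited whole-number read counts per gene for 12 libraries, not normalised. Per the submitters' processing notes, cutadapt 1.14, TopHat2 2.1.0, Cufflinks 2.2.1 and build rn6 were used; the sources used here give neither the counting program nor its strand setting. In each file 5 rows that name no gene held 80.9% to 86.6% of counts (ambiguous reads 78.3% to 83.6%) and were left out, which lowers the counts of genes that share sequence or position with others: 18 members have named pseudogene copies and 8 overlap a coding gene in GRCr8.

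Counts were tested with edgeR 4.0.16 (quasi-likelihood test, TMM, filterByExpr with a minimum count of 10) in R 4.3.3. The 2781 genes kept entered 1 fit of 4 group means over 12 libraries, with 7 contrasts, Benjamini-Hochberg adjustment over all genes and a threshold of 0.05; the step was tested on simulated data. Intervals (95%) use the fit's degrees of freedom. Alternatives were DESeq2 1.42.0, limma-voom 3.58.1, other scaling and filters, a replicate block and left-out libraries. Members and lists were chosen with earlier results of these data known. Values per library were given for the inducible genes, their constitutive partners and all tested members, and lists were named by the genes past the threshold and a few fixed regulators. Sequences are RefSeq's (GRCr8), matched by symbol, another build than that of the files.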

Additional observations from a re-analysis of the deposited data

How the results depend on the processing

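The count of members past the threshold was 0 under all 20 or 21 alternatives of each of the 7 contrasts, which tested up to 44 members. The replicate numbers were not taken to pair the libraries, since the labels do not say that they pair animals. Of 18 same-numbered pairs 4 correlated above 0.1 (r from -0.0902 to 0.204), with no value from differently numbered pairs set beside it. But 9 of 12 libraries correlated best with their own number, and replicate 1 had the highest inducible share in each of the 4 groups. No value expected by chance was set beside the 9 of 12. Replicate 1 was also the deepest library outside the top 3 features in F344 NS, WKY NS and WKY CRS. Whether libraries of the same number share something that the labels do not state was not tested. With the replicate block the members called were 0 in every contrast, and all genes called between strains went from 104 to 120. The log2 ratio of the inducible sum moved between -0.229 and 0.164 for strain, changing sign, and between 0.116 and 0.389 for CRS. Each shift was less than 0.422, the pooled SD of single libraries' log2 sums within groups. That SD is wider than the error of a difference between group means, so it is a lenient yardstick. Leaving out single libraries gave -0.223 to 0.037 for strain and 0.116 to 0.389 for CRS.

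Single members' log2 values near 0 turned sign, none of them past the threshold, and the cause was not tested. For the strain difference, Psmb9 became 0.127 with voom and 0.020 with the block. Psmd4 became -0.053 with voom. Psmd9 became 0.018 with DESeq2, 0.014 with its size factors, 0.062 without a filter and 0.016 with the block. Psme1 became 0.017 with DESeq2 and 0.031 without a filter, and Psme4 0.037 with voom and 0.021 without a filter. Without both shallow F344 NS libraries Psmd2 became -0.042, Psmd9 0.243 and Psme4 0.482. For CRS, Psmd4 became -0.106 with voom. Psme4 became 0.005 without the top 3 features, 0.053 with DESeq2, 0.006 with its size factors, 0.029 with voom and 0.191 without a filter. Without both shallow libraries Psmb1 became -0.093, Psmb9 -0.094, Psmd9 0.078 and Psme4 0.556.

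With 1 library left out, strain differences ran from 0.226 to 1.083 for Psmb1, -0.289 to 0.619 for Psmb9, -0.119 to 0.376 for Psmd2, -0.159 to 0.585 for Psmd4, -0.167 to 0.182 for Psmd9, -0.311 to 0.111 for Psme1 and -0.316 to 0.386 for Psme4. CRS changes ran from 0.027 to 0.879 for Psmb1, 0.069 to 0.891 for Psmb9, 0.185 to 0.574 for Psme1, -0.429 to 0.067 for Psmd2, -0.236 to 0.503 for Psmd4 and -0.257 to 0.452 for Psme4. Depth limits all of this: 38 of 45 members were below the count filter.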
